A study of Mus musculus with 9 samples.

Results

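Histone genes were compared between hair follicle stem cells of mice on 2 diets. Every gene symbol beginning with Hist1h to Hist4h, H2af, H3f3 or H1f was taken, which gave 89 of the 35006 gene symbols in the count tables. Of these, 70 are genes of the histone clusters and 19 are variant (replacement) histone genes, and 6 of the 89 carry a pseudogene suffix. The cells were CD34+ alpha6+ stem cells of the hair follicle bulge, sorted by flow cytometry from C57BL/6J mice that were housed singly. Ad libitum (AL) mice ate without limit and gave 5 libraries. Mice on dietary restriction (DR) received each day 70% of what matched AL mice ate, and gave 4 libraries. Cells of 3 mice were pooled for a group, according to the labels, which give no irradiation state, age, hair cycle stage or batch. They do not say that each library came from a pool of its own, so every p-value here reflects only how far these libraries spread, and part of that may be technical.

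Histones are the proteins around which DNA is wound: H2A, H2B, H3 and H4 form the core, and H1 binds the linker DNA between cores. Most cluster genes are transcribed in S phase, when new DNA must be packed, and their mRNA ends in a conserved stem-loop, bound by the protein SLBP, in place of a poly(A) tail. Variant genes lie elsewhere in the genome, give mRNA with a poly(A) tail, and are made throughout the cell cycle and in cells that have stopped dividing. The TruSeq RNA v2 kit used here selects RNA by its poly(A) tail, so ordinary stem-loop mRNA is largely lost at that step and a cluster gene is seen mainly through transcripts that carry a tail.

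The stem-loop is shown because it is the mRNA end described above. A gene without a match may still have one, since its annotated transcript may stop before it. Hist1h4k and Hist1h2bl, for example, had no match in annotated transcripts of 312 and 381 bases. It was searched in the GENCODE M21 transcripts (build GRCm38) as a fully paired stem of 6 bases around a loop of 4 bases. The sequences below run 5′ to 3′ with the paired stem in capitals. The first form was found in 25 cluster genes of the H1, H2A, H2B and H3 families, the next in 7 H4 genes, the next in Hist1h4i and Hist2h4, and the last in H2afx, the only variant gene with a match.
Hist1h1c: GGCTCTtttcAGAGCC
Hist4h4: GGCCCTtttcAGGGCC
Hist2h4: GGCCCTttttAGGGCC
H2afx: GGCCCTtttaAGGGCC
Of 55341 gene symbols in that annotation 81 (0.146%) held a match, 35 of them outside the histone genes studied.

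The promoters of the 3 linker histone genes of cluster Hist1 that were abundant enough to test, and of the variant H2afy2, are printed because Hist1h1c and H2afy2 carried the main differences described below. Each is the 250 bases before the annotated start, from RefSeq on build GRCm38.p6, with matches to 3 short motifs in capitals. The first motif was CCAAT. The second was TATAAA. The last, AAACACA, is an element known from H1 gene promoters. Both strands were searched, and none of the motifs contains another. Hist1h1c covers chr13:23738557-23738806 on the plus strand, Hist1h1d chr13:23554782-23555031 on the plus strand, Hist1h1e chr13:23622559-23622808 on the minus strand and H2afy2 chr10:61783865-61784114 on the minus strand.
Hist1h1c: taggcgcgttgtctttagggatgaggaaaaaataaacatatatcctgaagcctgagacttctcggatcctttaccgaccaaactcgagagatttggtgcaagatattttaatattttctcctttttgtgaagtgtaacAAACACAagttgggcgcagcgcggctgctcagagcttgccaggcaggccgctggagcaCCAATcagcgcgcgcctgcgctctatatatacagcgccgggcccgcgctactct
Hist1h1d: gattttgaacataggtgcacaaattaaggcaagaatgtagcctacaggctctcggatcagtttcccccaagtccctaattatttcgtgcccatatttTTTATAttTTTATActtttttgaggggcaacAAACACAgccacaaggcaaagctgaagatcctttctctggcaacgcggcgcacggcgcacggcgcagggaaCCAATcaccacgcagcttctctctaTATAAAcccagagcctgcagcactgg
Hist1h1e: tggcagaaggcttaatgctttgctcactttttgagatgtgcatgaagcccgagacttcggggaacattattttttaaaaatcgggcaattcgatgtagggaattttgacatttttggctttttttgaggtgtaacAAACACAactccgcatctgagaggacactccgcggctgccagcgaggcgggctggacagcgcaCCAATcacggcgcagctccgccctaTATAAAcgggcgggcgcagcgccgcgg
H2afy2: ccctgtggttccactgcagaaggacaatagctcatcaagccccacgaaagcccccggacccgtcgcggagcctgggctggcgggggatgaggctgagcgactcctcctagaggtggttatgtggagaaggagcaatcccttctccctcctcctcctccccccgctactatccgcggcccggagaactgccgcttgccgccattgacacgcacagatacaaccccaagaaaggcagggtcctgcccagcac
In Hist1h1c the AAACACA match lay at -112 and the CCAAT match at -54 from the start. Hist1h1d and Hist1h1e had both elements in similar places and also TATAAA. The exact letters TATAAA were not found in the Hist1h1c window. That window holds tatatata shortly before the start, and such similar forms were not searched. The H2afy2 window held none of the 3, which says only that these letters are not in it. RefSeq names matched 87 of the 89 symbols and a promoter was found for 75. Among the 61 cluster promoters CCAAT stood in 82% and TATAAA in 47.5%, against 33.8% and 12.4% of all 32851 promoters in the table. By family, CCAAT stood in all cluster H1, H2A and H2B promoters, in 8 of 10 H3 promoters and in 3 of 12 H4 promoters (25%). Windows of neighbouring genes can overlap, as those of Hist1h2ag and Hist1h2bj do, so that the same site counts in both. AAACACA stood in 5 of the 6 cluster H1 promoters and in 6.25% of all promoters. Among the 14 variant promoters CCAAT stood in 57.1% and TATAAA in 1.

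Library totals over genes ran from 26119459 to 33559312 reads. The sorted cells carried their defining markers: Krt15, a keratin of the bulge, ranged from 9671 to 14422 CPM in AL and from 7937 to 9253 CPM in DR, and Cd34 from 531 to 2041 CPM and from 414 to 630 CPM. CPM is a gene's read count relative to the total of its library, with TMM scaling. Some markers of other cells were near 0, such as Ptprc (all blood leukocytes) at or below 1.11 CPM and Lum (fibroblasts) at or below 0.275 CPM, and others were not. Summed over 5 markers of differentiated epidermis, led by Krt10, the libraries held 1348 to 4054 CPM in AL and 1436 to 4559 CPM in DR. Summed over 6 melanocyte markers, led by Mitf, they held 108 to 227 CPM and 119 to 172 CPM, and of 4 melanocyte genes tested 2 fell (Dct and Tyrp1). The bulge markers themselves differed, with sums of 27557 to 38493 CPM in AL and 20845 to 22285 CPM in DR, and 6 of the 10 fell. Summed over 6 fibroblast markers the AL libraries held 74.0 to 123 CPM and the DR libraries 19.8 to 40.5 CPM; of these 6, 4 were tested, 2 fell and 1 rose, and Lum was at 0 in 3 libraries. The same sums were for 4 endothelial markers 2.15 to 17.0 and 4.22 to 34.7, and for 7 immune markers 2.22 to 31.2 and 6.35 to 38.9. Cell division markers separated the diets. All 16 genes of a G2/M list were lower in DR, and 12 of 20 S phase genes were lower. Beside these counts and those of the markers above, 21.7% of all genes tested were lower and 19.0% higher. Mki67, a marker of dividing cells, stood at 150, 259, 126, 251 and 36.7 CPM in AL and at 6.47, 15.4, 7.97 and 10.9 CPM in DR, for a log2 fold change of -4.01 (adjusted p = 2.7e-04 by edgeR). AL replicate 5 had the lowest Mki67 of its diet, still above every DR library. Pcna, a clamp of the replication fork, did not pass the test (92.4 CPM ± 17.8 and 89.1 ± 21.5, SD, n = 5 and 4; adjusted p = 0.84). In bulk RNA a smaller share of cells in division and less RNA per cell cannot be told apart.

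Few of the histone genes taken here by symbol changed with diet, although many dividing-cell genes did. Of the 70 cluster genes, 10 were abundant enough to test, and 1 of these was higher in DR and 0 lower. Of the 19 variant genes, 11 were tested, and 1 was higher and 2 were lower. Calls are edgeR quasi-likelihood tests with an adjusted p under 0.05 over all 15447 genes tested, of which 40.7% were called, 19.0% higher and 21.7% lower. Of the tested histone genes 4 of 21 (19.0%) were called, and this share was not tested against the background. For the 0 lower cluster genes, 0 also had an unadjusted p under 0.05, and both DESeq2 and limma-voom called 0. The median log2 fold change was -0.036 over the tested cluster genes and -0.068 over the tested variant genes, beside -0.025 over all genes tested. Since a gene passes the filter on low counts through either diet, these counts describe only the genes that passed.

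**Figure D1:**
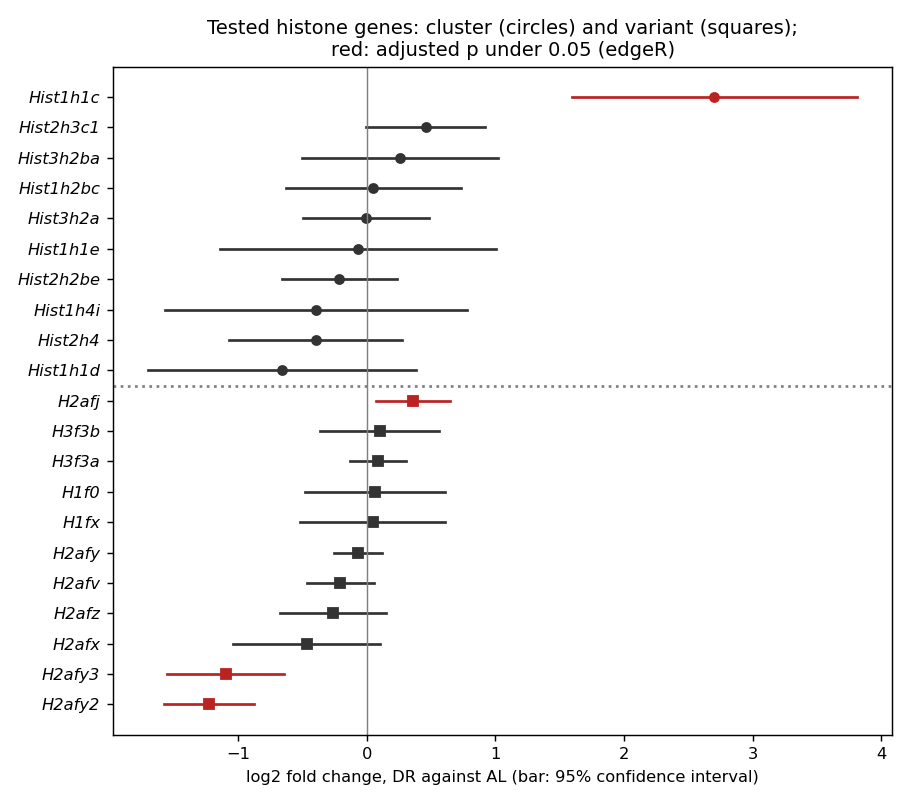
Log2 fold change of DR against AL for each tested histone gene, with its 95% confidence interval; circles are cluster genes, squares variant genes, and red marks an adjusted p under 0.05. Hist1h1c stands far to the right at 2.70, H2afy2 and H2afy3 lie to the left at -1.23 and -1.10, H2afj sits just right of 0 at 0.36, and the intervals of the others include 0.

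Hist1h1c, which encodes the linker histone H1.2, was the cluster gene that changed. Its level was 15.4, 25.1, 30.2, 28.9 and 17.0 CPM in the AL libraries and 42.9, 77.3, 142 and 346 CPM in the DR libraries. Every DR library lay above every AL library, and the DR libraries differed among themselves far more than the AL libraries did. The mean rose from 23.3 CPM ± 6.81 to 152 ± 135 (SD, n = 5 and 4), a log2 fold change of 2.70 (standard error, SE, 0.50; 95% confidence interval 1.59 to 3.81, adjusted p = 0.0017 by edgeR), or 6.51-fold. DR replicate 4 weighed on the size: without it the log2 fold change was 1.91, and the call held without any one library, with log2 fold changes of up to 3.01. Groups that do not overlap were found for 32.9% of all genes tested, 15.9% with DR higher and 17.0% with DR lower. Among the cluster genes Hist1h1c was the only one of the 10 tested whose groups did not overlap. G2/M levels and the summed fibroblast and bulge markers also separated the diets. As a mean log2(CPM + 0.5), the fibroblast markers overlapped between the diets (1.54 to 2.50 in AL, 0.80 to 1.98 in DR). On that scale the melanocyte markers did not (1.18 to 1.93 in AL, 0.82 to 1.14 in DR), though their sums overlapped. The part of division and of these markers in the Hist1h1c difference was not tested.

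The other linker histones of the clusters were rare. Hist1h1d (H1.3) and Hist1h1e (H1.4) stood below 0.73 CPM in all libraries, and neither passed the test (log2 fold change -0.66, adjusted p = 0.29, and -0.068, adjusted p = 0.93, by edgeR). The annotation places Hist1h2be and Gm11398 over Hist1h1e on the same strand, so its few reads are uncertain. Of the H1 genes outside the clusters, H1f0 encodes the linker histone of resting and differentiated cells, H1.0. H1f0 stood at 89.3, 111, 124, 90.5 and 89.6 CPM in AL and at 66.2, 78.4, 102 and 176 CPM in DR. The DR libraries lay on both sides of the AL range, with DR replicate 4 the highest of all and DR replicates 1 and 2 the lowest. The log2 fold change was 0.068 (95% confidence interval -0.48 to 0.61, adjusted p = 0.85 by edgeR). H1fx (H1.10) was low, at 4.18 to 8.81 CPM in AL and 4.31 to 8.16 CPM in DR, and did not pass the test (adjusted p = 0.90 by edgeR).

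The make-up of linker histone reads, taken after poly(A) selection, differed between the diets. Hist1h1c is seen here mainly through transcripts with a tail, so its shares and levels do not describe all of its RNA. Whether the use of a tail differed between the diets was not tested. Hist1h1c took 14.0, 17.1, 18.7, 22.5 and 15.2% of all H1 gene reads in the AL libraries and 37.0, 47.9, 56.4 and 65.0% in the DR libraries. The highest AL share, in replicate 4, had an exact 95% binomial interval of 21.2 to 23.9%, and the lowest DR share, in replicate 1, one of 35.3 to 38.6%, so that counting error does not bridge the gap. These intervals cover counting error only. Per kilobase of the longest annotated transcript, Hist1h1c rose from 15.0 to 97.4 CPM per kb between the diet means, while H1f0 stood at 49.1 and 51.5. Without DR replicate 4 the DR means were 56.1 and 40.1 CPM per kb. In DR replicate 1 Hist1h1c was still below H1f0, at 27.5 against 32.2 CPM per kb.

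**Figure D2:**
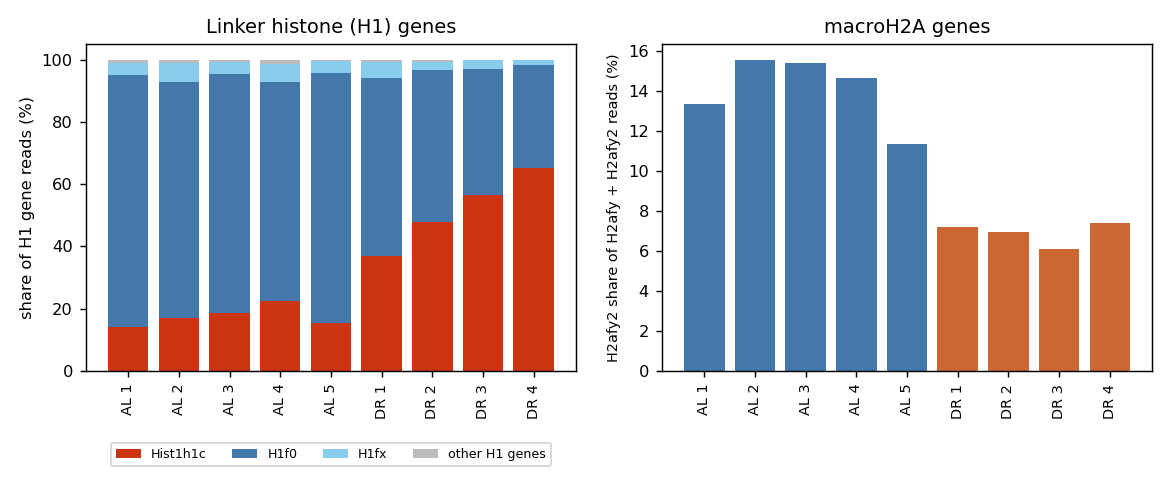
Left, the share of all H1 gene reads taken by Hist1h1c, H1f0, H1fx and the remaining H1 genes in each library; right, the share of H2afy2 in the reads of the macroH2A genes H2afy and H2afy2. The Hist1h1c share is 14.0 to 22.5% in AL and 37.0 to 65.0% in DR, and the H2afy2 share is 11.3 to 15.6% in AL and 6.09 to 7.38% in DR.

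Core histone genes of the clusters were low, and none passed the test. Hist1h2bc, an H2B gene and the next most abundant cluster gene, stood at 7.87, 9.44, 9.42, 9.20 and 7.08 CPM in AL and at 4.89, 5.80, 8.34 and 16.6 CPM in DR. DR replicates 1 and 2 were below all AL libraries and DR replicate 4 was above them all. Its log2 fold change of 0.052 (adjusted p = 0.91 by edgeR) became -0.44 without DR replicate 4, and was -0.014 with upper-quartile scaling and -0.027 with library size alone. Hist3h2a, an H2A gene of cluster Hist3, stood at 5.06, 5.39, 5.50, 4.53 and 6.13 CPM in AL and 3.38, 5.83, 4.36 and 7.61 CPM in DR, with overlapping groups and a log2 fold change of -0.0044 (adjusted p = 0.99 by edgeR). The annotation places Trim17 over Hist3h2a on the same strand, so the reads of Hist3h2a are uncertain. The H2B gene Hist2h2be stood at 3.23 to 4.29 CPM in AL and 2.55 to 4.55 CPM in DR (adjusted p = 0.43 by edgeR).

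Hist2h3c1 is an H3 gene of cluster Hist2. It stood at 2.24, 2.07, 1.88, 1.48 and 1.81 CPM in AL and at 2.91, 2.33, 1.88 and 3.29 CPM in DR. Of the DR libraries, 3 were above every AL library and replicate 3 was within the AL range. Its log2 fold change of 0.46 (95% confidence interval -0.0053 to 0.92) had an adjusted p of 0.105 by edgeR, and without DR replicate 3 it was 0.60 with an adjusted p of 0.048. The H4 genes Hist1h4i and Hist2h4 and the H2B gene Hist3h2ba stood below 1.3 CPM in all libraries, with log2 fold changes of -0.39, -0.40 and 0.26 and adjusted p-values of 0.591, 0.325 and 0.584 by edgeR. The annotation places Gm20634 over Hist2h3c1 on the same strand, so the reads of Hist2h3c1 are uncertain. Reads without a unique alignment, 10.4% to 13.6% of each library, were entered on a line that names no gene. The reads of near-identical cluster genes may thus have been dropped, or else shared, in counting, so that values of single genes are uncertain. Where reads were dropped, such genes are counted too low.

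Cluster genes that could not be tested were 60, of which 8 had no read in any library and 30, these 8 included, had under 10 reads summed over the 9 libraries. Summed, the untested cluster genes gave 57 to 186 reads per AL library and 59 to 170 per DR library, or 2.15 to 5.49 CPM and 2.22 to 5.48 CPM. These ranges lie on top of each other. By family, of 20 H2A genes 1 was tested, of 19 H2B genes 3, of 12 H3 genes 1 and of 13 H4 genes 2, against 3 of the 6 H1 genes.

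**Figure D3:**
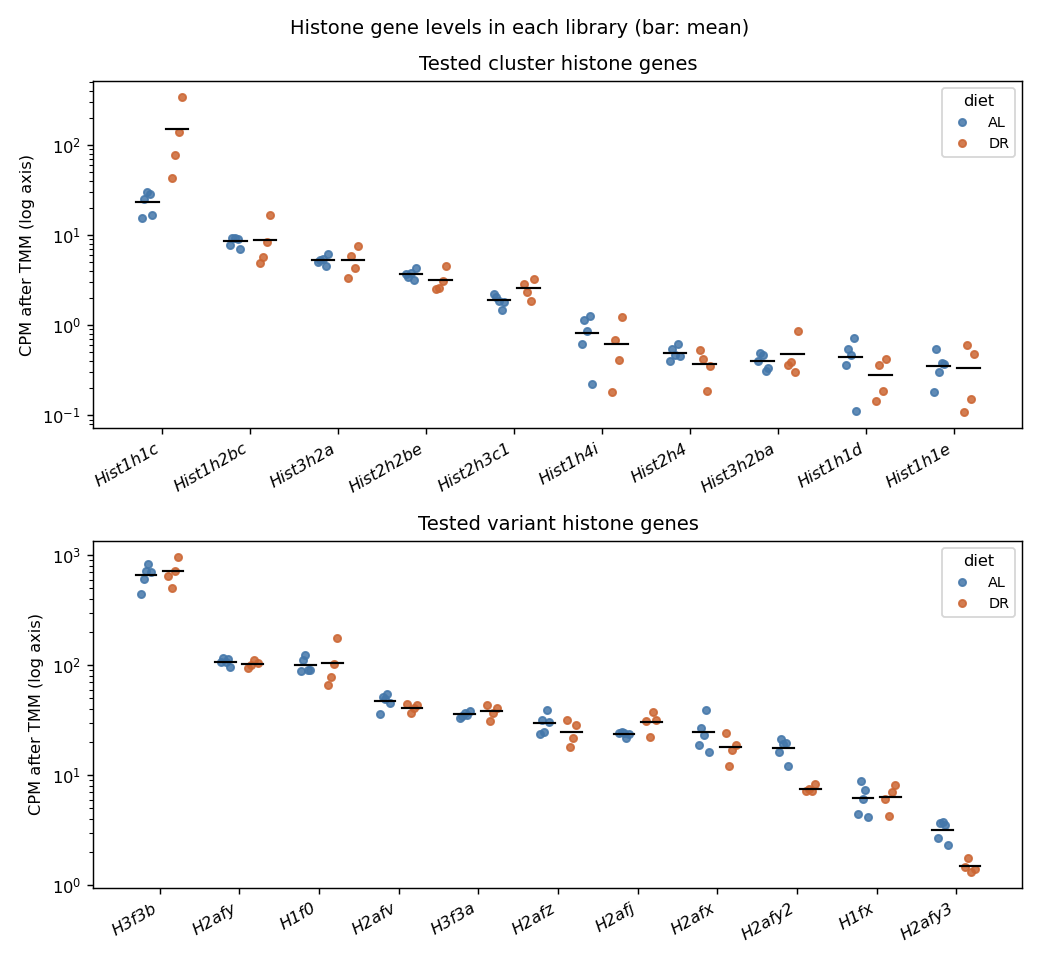
CPM after TMM (log axis) of the most abundant cluster genes and of variant genes in each library, with 1 point per library and a bar at the mean of each diet. The DR points of Hist1h1c lie between 42.9 and 346 CPM, all above the AL points, and those of H2afy2 between 7.25 and 8.32 CPM, all below the AL points.

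Most tested cluster genes had long annotated transcripts. Of the 10 tested, 8 had a longest transcript over 1000 bases, with a median of 1727.5 bases, and of the 59 untested genes with an annotated transcript 9 did, with a median of 488 bases. A stem-loop was found in 8 of the 10 tested genes, and in each of these 8 the annotated transcript ran on for more than 100 bases past it (169 to 4884 bases). Hist1h1c ran on for 840 bases. In the untested genes a stem-loop was found in 37, and in 23 of these the transcript ended within 100 bases of it. No match was found in Hist1h2bc and Hist2h2be. The lack of a match, in tested or untested genes, does not show that a stem-loop is absent. Longer transcripts also collect more reads at the same number of molecules, and the annotation of the count tables is not the one searched here.

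**Figure D4:**
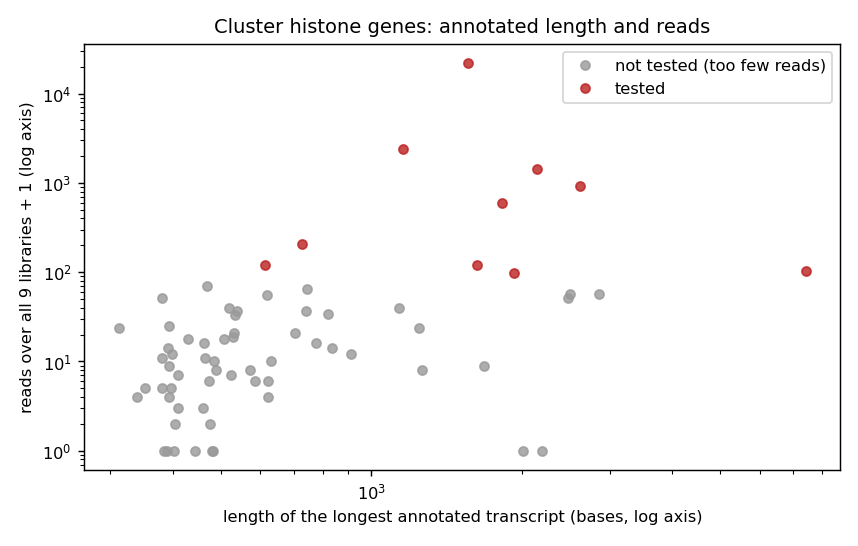
Reads summed over the 9 libraries (plus 1, log axis) against the length of the longest annotated transcript (bases, log axis) for cluster histone genes, tested and not tested. Of the 10 tested genes 8 are longer than 1000 bases, and of the 59 untested genes 50 are not.

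Summed over the clusters, the change was that of Hist1h1c. Cluster genes together stood at 40.4, 53.8, 57.0, 56.2 and 39.9 CPM in AL and at 61.7, 98.9, 163 and 386 CPM in DR, so the groups did not overlap. Without Hist1h1c the sums were 25.0, 28.6, 26.8, 27.2 and 23.0 CPM in AL and 18.8, 21.6, 21.1 and 40.9 CPM in DR. In DR, 3 libraries then lay below all AL libraries and replicate 4 above them (means 26.1 CPM ± 2.20 and 25.6 ± 10.3, SD, n = 5 and 4). By family, H2A genes gave 5.18 to 6.53 CPM in AL and 3.96 to 9.19 in DR, H2B genes 12.1 to 14.7 and 8.31 to 23.3, H3 genes 2.26 to 3.21 and 2.14 to 4.09, and H4 genes 1.43 to 3.47 and 1.54 to 2.90. In each of these 4 families the diets overlapped. The S phase list had a mean log2(CPM + 0.5) of 3.73 to 5.25 in AL and 3.43 to 3.70 in DR, with no overlap. On the scale used for the histone sums the list held 441 to 1139 CPM in the AL libraries and 409 to 471 CPM in the DR libraries, and there the diets overlapped.

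**Figure D5:**
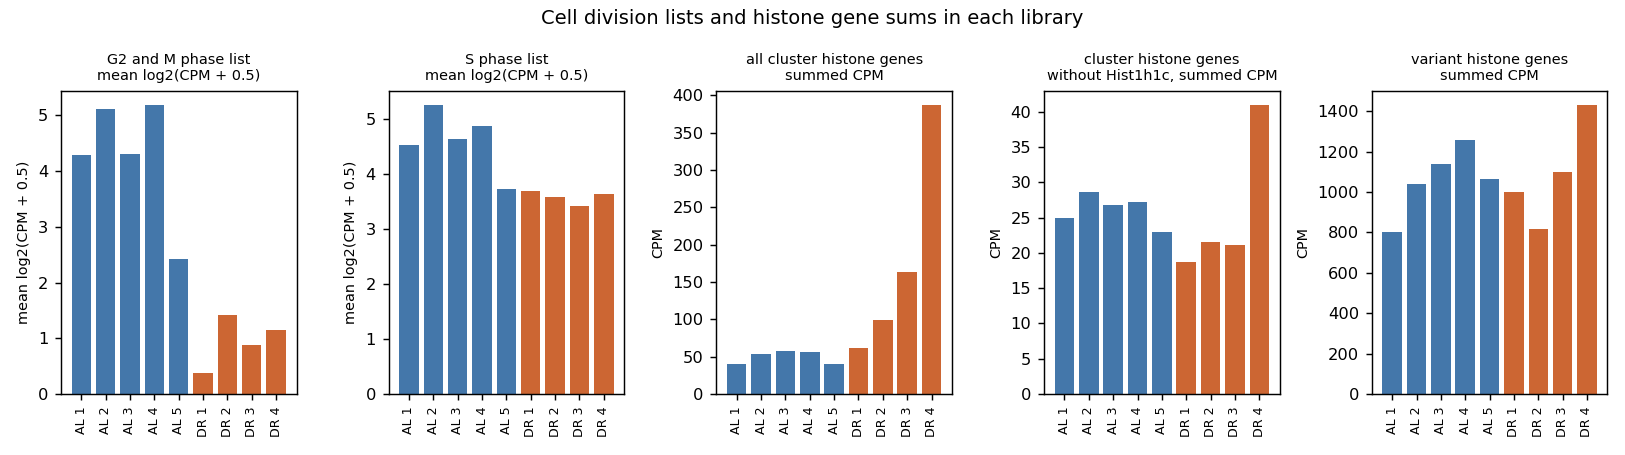
Cell division lists, as the mean log2(CPM + 0.5), and summed CPM of histone genes in each library. The G2/M and S phase lists are lower in each DR library than in any AL library, on this log scale, and the cluster sum without Hist1h1c lies at 18.8 to 21.6 CPM in 3 DR libraries, 40.9 in DR replicate 4 and 23.0 to 28.6 in AL.

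Variant histone genes gave most histone reads. Their sum was 800, 1038, 1137, 1257 and 1067 CPM in AL and 1001, 816, 1102 and 1429 CPM in DR, with overlapping groups. The cluster genes took 3.61 to 4.93% of all histone reads in AL and 5.81 to 21.3% in DR. The largest part came from H3f3b, one of a pair of genes that encode the replacement histone H3.3. H3f3b stood at 444, 608, 719, 831 and 708 CPM in AL and at 652, 504, 717 and 967 CPM in DR. The groups overlapped, and the log2 fold change was 0.10 (95% confidence interval -0.36 to 0.56, adjusted p = 0.73 by edgeR). The other H3.3 gene, H3f3a, stood at 33.5 to 38.1 CPM in AL and 31.3 to 43.2 CPM in DR. Its log2 fold change was 0.090 (95% confidence interval -0.13 to 0.31, adjusted p = 0.50 by edgeR). The annotation places the antisense genes H3f3aos and Gm17275 over H3f3a. H3f3a gave 4.10 to 7.01% of the reads of the pair in AL and 4.08 to 6.22% in DR.

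Of the macroH2A genes, H2afy2 fell. MacroH2A variants carry a large globular domain, are enriched on silent chromatin such as the inactive X chromosome, and hold back gene reprogramming. H2afy2, which encodes macroH2A2, stood at 16.4, 21.2, 19.3, 19.5 and 12.3 CPM in AL and at 7.26, 7.48, 7.25 and 8.32 CPM in DR. All DR libraries were close together and below all AL libraries. The mean fell from 17.7 CPM ± 3.51 to 7.58 ± 0.504 (SD, n = 5 and 4), a log2 fold change of -1.23 (SE 0.16, 95% confidence interval -1.58 to -0.88, adjusted p = 2.3e-04 by edgeR), or 2.34-fold lower. Without any one library it ranged from -1.14 to -1.33. AL replicate 5, the AL library with least Mki67, had the least H2afy2 of its diet. It was the lowest of its diet in 8 of the 21 tested histone genes. The part of cell division and of the fibroblast, bulge and melanocyte markers in the H2afy2 difference was not tested. Aifm2 lies over H2afy2 on the opposite strand, and reads of overlapping genes cannot be told apart here; Aifm2 stood at 12.8 CPM ± 2.89 in AL and 17.4 ± 2.04 in DR, with a log2 fold change of 0.45 (adjusted p = 0.050 by edgeR).

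The related gene H2afy, which encodes macroH2A1, was more abundant and did not pass the test. It stood at 106, 115, 106, 114 and 96.1 CPM in AL and at 93.6, 101, 112 and 104 CPM in DR, with overlapping groups and a log2 fold change of -0.068 (95% confidence interval -0.25 to 0.12, adjusted p = 0.55 by edgeR). H2afy2 gave 13.3, 15.6, 15.4, 14.6 and 11.3% of the reads of both genes in AL and 7.20, 6.92, 6.09 and 7.38% in DR, with no overlap. H2afy3 also fell, from 3.20 CPM ± 0.651 to 1.49 ± 0.193 (SD, n = 5 and 4; log2 fold change -1.10, SE 0.21, adjusted p = 0.0018 by edgeR). RefSeq describes H2afy3 as a transcribed pseudogene, and it lies within Pvt1 on the opposite strand. Pvt1 itself had a log2 fold change of -1.12 (adjusted p = 4.2e-04 by edgeR), and the reads of the 2 genes cannot be told apart.

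H2afj encodes H2A.J, a variant known to gather in senescent cells. It stood at 24.1, 24.7, 24.5, 22.0 and 23.7 CPM in AL and at 30.9, 22.1, 37.7 and 31.7 CPM in DR. Of the DR libraries 3 lay above all AL libraries and replicate 2 among them. The mean rose from 23.8 CPM ± 1.08 to 30.6 ± 6.45 (SD, n = 5 and 4), with a log2 fold change of 0.36 and an SE of 0.13 (adjusted p = 0.048 by edgeR). The call was lost in 14 of 18 alternatives, among them leaving out any one library but DR replicate 2, with adjusted p-values of up to 0.13 and log2 fold changes of 0.26 or more.

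The H2A.Z genes mark promoters and are loaded by exchange complexes. H2afv stood at 36.0 to 54.9 CPM in AL and 36.4 to 44.3 CPM in DR, with a log2 fold change of -0.20 (adjusted p = 0.20 by edgeR), which was -0.29 with an adjusted p of 0.037 without AL replicate 1. H2afz stood at 23.8 to 39.1 CPM in AL and 18.1 to 31.7 CPM in DR, for a log2 fold change of -0.26 (adjusted p = 0.29 by edgeR). H2afv gave 58.4 to 66.3% of the reads of this pair in AL and 58.3 to 66.8% in DR. H2afx encodes H2A.X, which is phosphorylated around DNA breaks, and its gene can give both a stem-loop and a poly(A) mRNA; the annotated transcript ran 822 bases past the stem-loop. H2afx stood at 18.7, 27.2, 23.4, 39.1 and 16.3 CPM in AL and at 24.1, 12.1, 17.1 and 19.0 CPM in DR. The groups overlapped, with a log2 fold change of -0.47 (95% confidence interval -1.04 to 0.10, adjusted p = 0.17 by edgeR).

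By level per kilobase of the longest transcript, the AL means put H3f3b first at 263 CPM per kb, then H1f0 at 49.1. These levels hold for RNA selected by its poly(A) tail, which leaves out most stem-loop mRNA of cluster genes. H2afv, H2afz and H2afy followed at 29.1, 28.0 and 26.8, and their libraries overlap in level. H2afx, Hist1h1c and H3f3a stood at 18.0, 15.0 and 12.6 CPM per kb, and H2afy2 and Hist1h2bc at 8.15 and 7.44. In DR, H3f3b stood at 282 CPM per kb, Hist1h1c at 97.4 and H1f0 at 51.5. DR replicate 4 had the highest level of its diet for 12 of the 21 tested histone genes (57.1%), against 23.8% of all genes tested, and the lowest for 0 of them.

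Genes that make, process and place histones were called in both directions, at a share near that of all genes tested. Of a list of 43 such genes, all tested, 8 rose and 11 fell, or 44.2% called beside 40.7% of all genes tested. Of 14 genes of histone transcription and 3′ end processing 3 rose and 0 fell by edgeR. That is 21.4% called, all higher, beside 40.7% of all genes tested, of which 19.0% were higher and 21.7% lower. At an unadjusted p under 0.05, 2 of the 14 were lower, and DESeq2 and limma-voom each called 1 lower. Npat, the activator of the cluster genes at the histone locus body, stood at 25.1 to 32.2 CPM in AL and 38.3 to 56.0 CPM in DR, with no overlap (log2 fold change 0.64, adjusted p = 0.0018 by edgeR). Casp8ap2 (FLASH), its partner in that body, rose from 34.0 CPM ± 3.27 to 53.0 ± 6.01 (SD, n = 5 and 4; log2 fold change 0.64, adjusted p = 6.7e-04 by edgeR). Slbp stood at 35.3, 51.1, 40.4, 68.0 and 43.5 CPM in AL and 60.5, 23.2, 29.6 and 38.8 CPM in DR. Its log2 fold change of -0.33 did not pass the test (adjusted p = 0.35 by edgeR), and without DR replicate 1 it was -0.64 with an adjusted p of 0.046.

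The other 29 genes of the list are histone chaperones and related factors. Cenpa, itself a histone whose symbol lies outside those taken here, is counted among them. Of these 29, 5 were higher and 11 lower in DR, or 55.2% called beside 40.7% of all genes tested. Hira, the core of the HIRA complex, stood at 53.5 to 59.6 CPM in AL and 74.2 to 77.9 CPM in DR, with no overlap (log2 fold change 0.45, SE 0.066, adjusted p = 4.4e-04 by edgeR). Daxx, which places H3.3 at repeats, rose from 40.2 CPM ± 3.40 to 59.4 ± 7.69 (SD, n = 5 and 4; log2 fold change 0.56, adjusted p = 0.0014 by edgeR). Asf1a and Ubn1, which work with HIRA and are named after their values were seen, also rose (log2 fold changes 0.51 and 0.37, adjusted p = 0.0033 and 0.0057 by edgeR). Ubn2, Cabin1 and Atrx did not pass the test (adjusted p = 0.757, 0.247 and 0.285 by edgeR).

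Asf1b, the ASF1 form of dividing cells, stood at 8.78, 16.9, 10.5, 14.4 and 2.56 CPM in AL and 1.01, 1.32, 0.789 and 1.06 CPM in DR. No DR library reached the lowest AL library, replicate 5 (log2 fold change -3.34, adjusted p = 3.8e-04 by edgeR). Chaf1a, of the replication chaperone CAF-1, fell from 22.5 CPM ± 8.45 to 13.1 ± 0.817 (SD, n = 5 and 4; log2 fold change -0.79, adjusted p = 0.025 by edgeR). That call was lost without DR replicate 2, 3 or 4, with log2 fold changes of -0.76, -0.75 and -0.78. Its CAF-1 partner Chaf1b did not pass the test (adjusted p = 0.131 by edgeR). Cenpa, the H3 form of centromeres, stood at 5.72 to 29.1 CPM in AL and 1.80 to 3.83 CPM in DR, for a log2 fold change of -2.80 (adjusted p = 5.8e-04 by edgeR), and its chaperone Hjurp did not pass the test (adjusted p = 0.082 by edgeR).

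Of the factors that handle H2A.Z, Znhit1, a subunit of the SRCAP exchange complex, fell from 28.1 CPM ± 2.36 to 14.0 ± 0.287 (SD, n = 5 and 4; log2 fold change -0.999, adjusted p = 2.8e-05 by edgeR). Anp32e, which takes H2A.Z off chromatin, fell from 124 CPM ± 15.7 to 71.8 ± 6.19 (SD, n = 5 and 4; log2 fold change -0.79, adjusted p = 3.3e-04 by edgeR). In both genes the diets did not overlap. Srcap and Vps72, of the same exchange complex, did not pass the test (adjusted p = 0.42 and 0.12 by edgeR). The G2/M list was also lower in DR, and its part in the differences among the 43 genes of this list was not tested.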

How the data were processed

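RNA of sorted bulge stem cells was sequenced from 5 AL and 4 DR samples as single reads of 51 cycles, per the labels' protocols. The deposited files hold raw read counts per gene symbol, not normalised by the authors. The submitters' processing notes name HTSeq 0.11.2, TopHat2 2.1.0, FastQC 0.11.5 and Bowtie, and the build mm9. How strand and reads with several matches were handled, and with which annotation, was not given in the sources used here. The 6 lines of each file that name no gene held 25.9% to 30.7% of reads and were left out. The line among them for reads without a unique alignment held 10.4% to 13.6%. The 16 pairs of libraries within a diet differed by more than sampling noise, so each library counted once.

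Diets were compared with edgeR 4.0.16 (R 4.3.3; filterByExpr, TMM, quasi-likelihood fit on diet alone), adjusted by Benjamini-Hochberg over all 15447 genes tested, with a threshold of 0.05. CPM is given after TMM. Alternatives were DESeq2 1.42.0, limma 3.58.1 (voom with quality weights), other scalings, other filters, another threshold, a replicate block and leaving out each library. On simulated counts of 15183 genes 30% of 1.5-fold changes and 66% of 2-fold changes were found, with 4% false among the calls, so smaller changes can be missed. Only 100 genes were changed at each fold there, while 40.7% of genes were called in the data, so these rates need not carry over. No mm9 annotation was used here: lengths and stem-loops are from GENCODE M21 (GRCm38), promoters from RefSeq (GRCm38.p6), and 2 list genes were found under older names.

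The histone genes and gene lists were chosen with earlier results of these data known. Named were all tested variant genes, the 10 most abundant cluster genes (which are all those tested), up to 4 supply genes with the smallest p in each direction, Slbp, Npat, Chaf1a, Asf1b, Hira, Daxx, Cenpa, Mki67 and Pcna. A gene that this rule selects is not reported here. Others were named after their values were seen.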

Additional observations from a re-analysis of the deposited data

Results flagged for a closer look

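In 2 of 80 groups of libraries examined, 1 library stood far from the rest of its diet, where chance alone gives about 1 in 20 groups. Both concern DR replicate 4. Summed over the cluster histone genes without Hist1h1c, DR replicate 4 reached 40.9 CPM, the next DR library 21.6 and the lowest 18.8. For Hist3h2ba, DR replicate 4 stood at 0.871 CPM, the next DR library at 0.389 and the lowest at 0.301. The cause was not tested.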

How the results depend on the processing

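The calls of Hist1h1c, H2afy2 and H2afy3 held in all 18 alternatives, and that of H2afj was lost in 14. At an adjusted p of 0.01, 1866 of all genes were higher and 2071 lower, and 7 supply genes were lower. With upper-quartile scaling 2463 genes were higher and 3821 lower, and with library size alone 2275 and 3582, where TMM gave 2941 and 3349. The number of cluster genes called higher was 1 to 2 when 1 library was left out, with 2 without DR replicate 3, which adds Hist2h3c1. The number called lower was 1 with no filter (Hist1h2bb) and 1 with the replicate block (Hist1h1d). The number of variant genes called higher was 0 with upper-quartile scaling, library size alone, limma-voom, the replicate block and an adjusted p of 0.01, and 0 to 1 when 1 library was left out. The log2 ratio of the diet means of the cluster sum was -0.029 without Hist1h1c.

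Replicates 1 to 4 share only a number: same-number correlations were 0.029 to 0.23, and 2 AL and 1 DR libraries matched their own number best. With the replicate block, 3067 genes were higher and 3366 lower, the log2 fold change of Hist1h1c was 2.22 and that of Hist1h1d -0.93 (adjusted p = 0.044 by edgeR).

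Some histone genes that did not pass the test turned sign, each with an adjusted p of 0.116 or more there. Hist1h2bc was -0.014 with upper-quartile scaling, -0.027 with library size alone, -0.092 with limma-voom, -0.17 with the block, and -0.44 to 0.26 when 1 library was left out. Hist3h2a was 0.0140 with DESeq2 size factors and 0.0137 with the DESeq2 test, and -0.23 to 0.16 when 1 library was left out. H1f0 was -0.011 with library size alone, -0.018 with limma-voom, -0.070 with the block, and -0.29 to 0.24 when 1 library was left out. H1fx was -0.019 with upper-quartile scaling, -0.036 with library size alone, -0.055 with the block, and -0.091 to 0.22 when 1 library was left out. Leaving out 1 library gave Hist3h2ba -0.19 to 0.44, Hist1h1e -0.50 to 0.21, H3f3b -0.083 to 0.24 and Pcna -0.18 to 0.088. The causes were not tested. Low counts limit the cluster genes: 30 of 70 had under 10 reads summed over the 9 libraries. How far poly(A) selection, the counting of reads or depth set these counts was not tested.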

Other observations

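Among histone genes too rare for the filter on low counts, a fit with no filter covered 52 cluster and 5 variant genes. H1foo, the linker histone of oocytes, had an adjusted p of 0.0091 by edgeR on 1 read in all AL libraries together and 2 to 5 reads in each DR library. Hist1h2bb had a log2 fold change of -3.12 (adjusted p = 0.049 by edgeR). At an unadjusted p under 0.05, 6 of the 52 cluster genes differed, 5 lower and 1 higher. All were named after their values were seen. AL replicates 1 and 5 were each the lowest of their diet in 8 of the 21 tested histone genes (38.1%), where they are the lowest in 15.8% and 25.3% of all genes tested.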
